A study of Mus musculus with 9 samples.

Results

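The genes described here mark the endothelial cells that line blood vessels, and 36 were chosen by name from the 18193 genes measured. They were grouped as 16 genes of liver sinusoids, 6 of other capillaries and 14 shared by most endothelium. All 36 were measured, each by the brightest, averaged over the 9 arrays, of the probe sets that name that gene alone. RNA from 5 hepatocellular carcinomas and 4 normal livers of mice was hybridised to Affymetrix mouse expression arrays. The tumours, dissected 4 months after Ad-Cre had been injected into the spleen, came from animals titled triple knockout and listed as RbΔ/Δ; p130Δ/Δ; p107+/-. The control livers came from adult wild type animals without tumours, so genotype, virus and tumour state differ together and cannot be told apart. Ad-Cre is an adenovirus that carries Cre recombinase, which deletes the marked alleles in the cells it infects; no label says whether these included endothelial cells. The labels do not state that each sample is a different animal, and the p-values therefore reflect only how far these particular samples spread, which may be technical.

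Liver sinusoids are lined by an unusual endothelium with open pores and hardly any basement membrane. Its cells clear waste from the blood through scavenger and lectin receptors such as the stabilins and Clec4g, and they secrete BMP and Wnt signals that act on neighbouring hepatocytes. Most other capillaries have a continuous basement membrane and carry Cd34, which healthy sinusoids largely lack, and a change of sinusoidal cells towards that state is known as capillarisation. Kdr, Tek, Cdh5 and Pecam1 are carried by endothelium of both kinds.

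Most sinusoidal genes were lower in the tumours, and the capillary gene Cd34 was higher. With limma at an adjusted p of 0.05, 19 of the 36 genes passed, beside 33.5% of all genes. Of the 16 sinusoidal genes, 12 fell and 0 rose, beside 17.4% of all genes that fell, and 0 were higher at an unadjusted p of 0.05. The 12 include Wnt2, Wnt9b and Rspo3, which come from endothelium of the central vein region and are counted as sinusoidal here. Of the 6 capillary genes, 3 rose and 1 fell, beside 16.1% of all genes that rose. Of the 14 shared endothelial genes, 3 fell, near the 17.4% of all genes, and 0 rose, beside 16.1%. Differences were negative for 11 of the 14, beside 10904 of all 18193 genes. Sox18, which did not pass, was higher at an unadjusted p of 0.05. The number of shared genes that fell depends on scaling. With arrays centred on the median change of housekeeping genes it was 9 of the 14, beside 10739 of all 18193 genes. The median log2 difference was -1.76 over the sinusoidal genes, 0.27 over the capillary genes, -0.26 over the shared genes and -0.08 over all genes. In tissue samples such as these, fewer cells of a type and less RNA per cell cannot be told apart. The lists were chosen with results of these data known and are described without a test of the list.

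**Figure D1:**
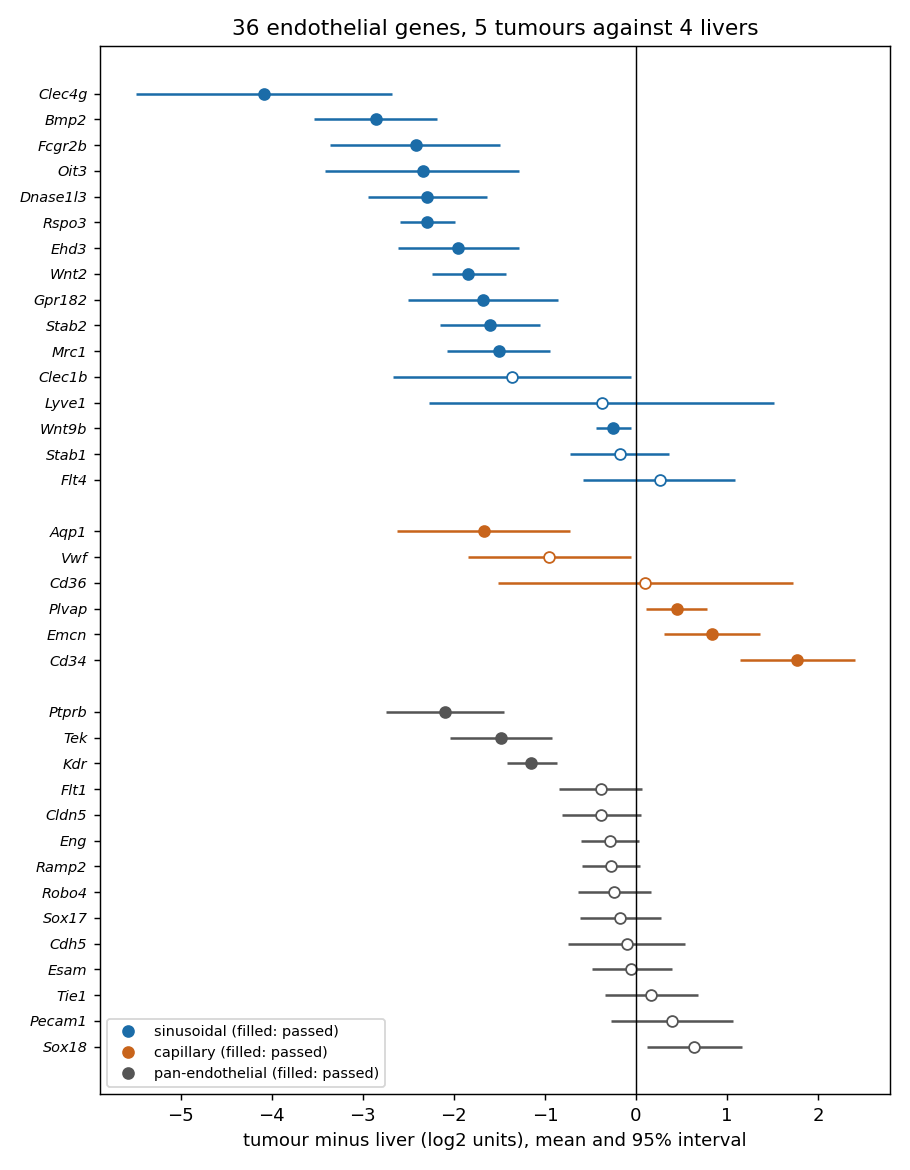
Tumour minus liver difference (log2 units, x axis) with its 95% interval for each of the 36 genes (y axis), in 3 sets, from limma on 5 tumours and 4 livers. Filled points passed an adjusted p of 0.05: 12 of 16 sinusoidal genes lie to the left of 0, from -0.25 for Wnt9b to -4.08 for Clec4g, while 11 of 14 shared endothelial genes did not pass.

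The sets could also be followed array by array, as each gene's distance from its own liver mean. The median distance of the 16 sinusoidal genes was -2.47, -1.69, -1.95, -1.18 and -1.67 in tumours 1 to 5, against -0.18 to 0.17 in the livers. For the 14 shared genes the medians were -0.67, -0.04, 0.18, -0.21 and -0.43 in the tumours, against -0.05 to 0.13 in the livers. The sinusoidal median lay below the shared median in every tumour, by 0.97 in tumour 4 to 2.14 in tumour 3. In the livers these medians were within 0.12 of each other. Centring on each gene's own liver mean draws liver medians together for any gene set, so they are no independent contrast. The capillary medians were mixed, at -0.25 and -0.26 in tumours 1 and 2 and 0.24 to 0.67 in the other 3.

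**Figure D2:**
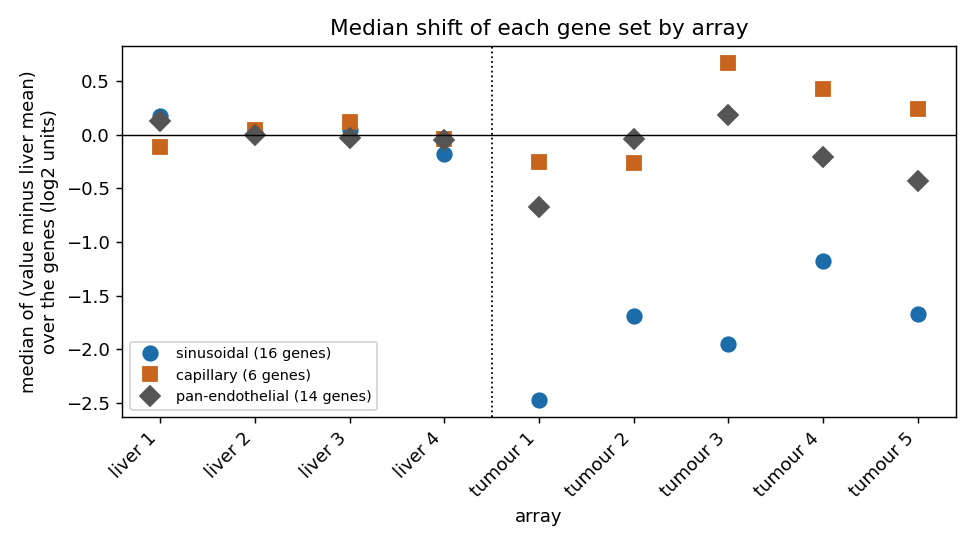
Median over each gene set (y axis, log2 units) of an array's value minus the gene's liver mean, for the 4 livers and 5 tumours (x axis), 1 point per set and array. The sinusoidal median lies between -2.47 and -1.18 in the tumours and the shared endothelial median between -0.67 and 0.18.

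The regulatory sequence upstream of 4 genes is shown because they span the pattern: Clec4g and Stab2 fell, Stab1, the paralog of Stab2, did not pass, and Cd34 rose. The 250 bases before the annotated start were taken from RefSeq (GRCm38.p6), which held promoters for 21 of the 36 genes. They lie at chr8:3720652-3720901 (- strand), chr10:87007943-87008192 (- strand), chr14:31168642-31168891 (- strand) and chr1:194938571-194938820 (+ strand), each written 5′ to 3′ on the gene's own strand. Capitals mark matches on either strand to the core letters of 4 factor families known from endothelium. The letters searched for ETS factors were AGGAAG and also CGGAAG. Those searched for GATA factors were AGATAA. For SOX factors the search used ATTGTT. For MAF factors it used TGCTGA.
Clec4g: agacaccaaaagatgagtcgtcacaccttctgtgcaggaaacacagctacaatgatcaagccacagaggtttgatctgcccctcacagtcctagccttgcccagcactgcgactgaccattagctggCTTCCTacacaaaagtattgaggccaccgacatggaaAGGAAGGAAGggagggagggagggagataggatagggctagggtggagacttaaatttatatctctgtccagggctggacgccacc
Stab2: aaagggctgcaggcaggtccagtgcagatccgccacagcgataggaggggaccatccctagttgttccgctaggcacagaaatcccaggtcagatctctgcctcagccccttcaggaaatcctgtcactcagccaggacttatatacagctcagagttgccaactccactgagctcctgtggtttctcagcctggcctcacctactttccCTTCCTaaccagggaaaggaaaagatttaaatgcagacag
Stab1: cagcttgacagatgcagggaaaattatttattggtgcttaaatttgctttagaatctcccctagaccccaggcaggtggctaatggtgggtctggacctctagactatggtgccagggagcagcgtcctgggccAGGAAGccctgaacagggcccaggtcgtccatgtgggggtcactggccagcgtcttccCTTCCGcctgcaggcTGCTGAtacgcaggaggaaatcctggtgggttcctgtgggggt
Cd34: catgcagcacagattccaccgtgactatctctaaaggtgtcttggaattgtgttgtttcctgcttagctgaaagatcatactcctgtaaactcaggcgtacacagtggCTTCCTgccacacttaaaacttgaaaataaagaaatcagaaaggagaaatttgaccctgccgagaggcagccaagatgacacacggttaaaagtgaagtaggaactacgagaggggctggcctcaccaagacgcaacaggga
The ETS letters occurred 3 times before Clec4g, where 2 matches overlap, once each before Stab2 and Cd34, and 2 times before Stab1, which also held the single MAF match shown. Of the 21 promoters of these endothelial genes, 11 (52.4%) held an ETS match, beside 39.2% of all 32851 promoters. The 21 are a single promoter for each gene, whereas the 32851 were not reduced in that way. A MAF match was in 5 (23.8%, beside 16.1%), a SOX match in 3 (14.3%, beside 9.42%) and a GATA match in 0 (beside 9.99%). A match is a string of letters in this window, and genes that fell and genes that rose both held ETS matches.

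Among the sinusoidal receptors, Clec4g had the largest fall of the 36 genes. Clec4g, a C-type lectin known as LSECtin, read 6.70, 8.92, 6.22, 9.37 and 7.17 in tumours 1 to 5 and 11.95, 11.59, 11.91 and 11.58 in livers 1 to 4, on the log2 scale. Every tumour was below every liver, with a gap of 2.21 between the groups, but tumours 2 and 4 stood well above the other 3. The difference was -4.08 (SE 0.62, limma adjusted p = 0.00128), which leaves 5.9% of the liver level. A dimmer Clec4g probe set had means of 6.25 (tumours) and 6.51 (livers) and did not pass (-0.26), and the mean of both probe sets differed by -2.17.

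The stabilins, a pair of scavenger receptors that clear hyaluronan and other waste, went apart. Stab2 read 7.39, 8.0, 8.17, 8.77 and 8.31 in the tumours and 9.97, 9.77, 9.43 and 9.73 in the livers, and the groups did not overlap. Its difference was -1.60 (SE 0.24, limma adjusted p = 0.00128). Stab1 read 7.65, 7.76, 8.65, 8.58 and 8.62 in the tumours and 8.54, 8.47, 8.54 and 8.18 in the livers. Tumours 3 to 5 were above every liver for Stab1 and tumours 1 and 2 below every liver, and the difference of -0.18 (95% interval -0.72 to 0.36) did not pass. Macrophages can also carry Stab1.

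Other endocytic and immune receptors of sinusoids fell as well. Fcgr2b, an inhibitory Fc receptor that removes immune complexes, read 7.42, 8.58, 9.10, 9.75 and 8.20 in the tumours and 10.73 to 11.37 in the livers, a difference of -2.42 (SE 0.41, limma adjusted p = 0.00232). Of its 5 probe sets, 4 passed, at -1.71 to -2.98, and the dimmest did not (-0.11). The mannose receptor gene Mrc1 fell by 1.50 (SE 0.25), with a tumour mean of 8.81 ± 0.54 (SD, n = 5) and a liver mean of 10.31 ± 0.12 (SD, n = 4). Gpr182, an atypical receptor that scavenges chemokines, fell by 1.68 (SE 0.36), with tumours at 6.86 to 8.64 and livers at 9.09 to 9.53. Clec1b, the lectin CLEC-2, read 6.54, 7.88, 9.27, 9.53 and 9.30 in the tumours and 9.53 to 10.19 in the livers. Its difference of -1.36 did not pass (limma adjusted p = 0.0997), with tumours 1 and 2 low and the other 3 close to the livers. Without the 3 arrays with low Xist (tumours 1 and 2 and liver 4) it was smaller, -0.60, and passed (limma adjusted p = 0.0315).

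Among the other sinusoidal products, Dnase1l3, a secreted nuclease that degrades DNA in the blood, read 5.95, 6.40, 5.77, 7.19 and 5.68 in the tumours and 8.70, 8.51, 8.27 and 8.47 in the livers. It fell 4.88-fold (log2 -2.29, SE 0.29, limma adjusted p = 0.000446), and its dimmer probe set also passed at -0.71. Ehd3, which shapes endocytic membranes, read 7.99, 8.61, 7.50, 8.03 and 9.17 in the tumours and 10.10 to 10.40 in the livers, a difference of -1.95 (SE 0.30). Oit3, a marker of liver endothelium, fell by 2.34 (SE 0.47), with tumours at 5.90 to 8.20 and livers at 9.16 to 10.04. Tumours and livers did not overlap for 12 of the 16 sinusoidal genes, each lower in tumours, beside 15.9% of all genes.

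Lyve1 and Flt4, shared by sinusoidal and lymphatic endothelium, did not pass. Lyve1, a hyaluronan receptor, varied widely in both groups, at 4.86, 8.25, 6.30, 8.06 and 7.86 in the tumours and 7.41, 8.28, 8.59 and 5.47 in the livers (difference -0.37, 95% interval -2.27 to 1.52). Its lowest values were in tumour 1 and liver 4. Flt4, the receptor for VEGF-C, read 9.55, 7.92, 9.97, 8.54 and 8.72 in the tumours and 8.52 to 8.84 in the livers, a difference of 0.26 (95% interval -0.58 to 1.09). Tumours 1 and 3 were above every liver for Flt4 and tumour 2 was below every liver.

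**Figure D3:**
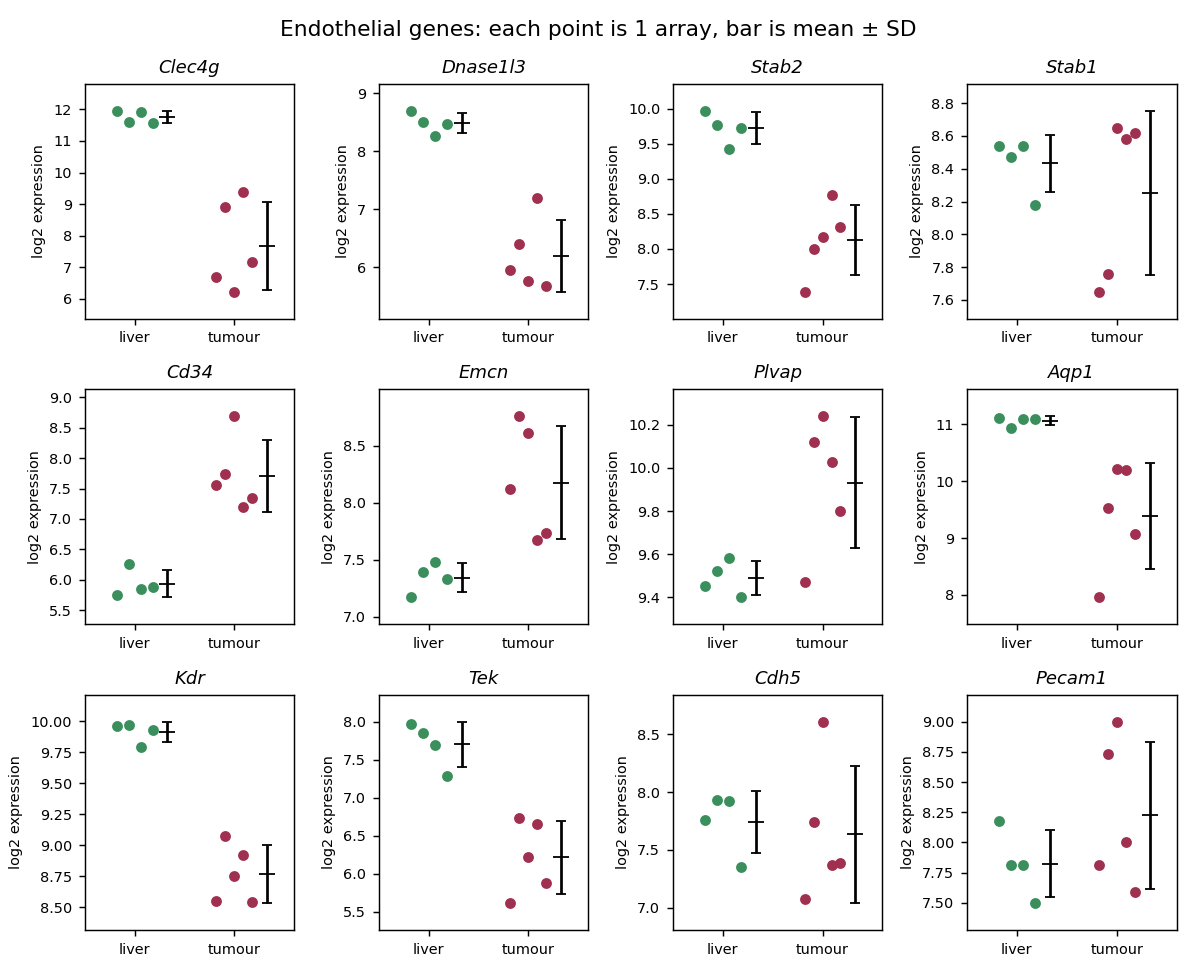
Log2 expression (y axis, each panel with its own range) of 12 genes in 4 livers and 5 tumours, 1 point per array, with the mean ± SD beside the points. Clec4g, Dnase1l3, Stab2, Aqp1, Kdr and Tek are lower in every tumour than in any liver, Cd34 and Emcn are higher in every tumour, and the groups overlap for Stab1, Plvap, Cdh5 and Pecam1.

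Of 4 secreted signals of liver endothelium, Rspo3, Wnt2 and Bmp2 fell clearly and Wnt9b differed little. Wnt2, Wnt9b and the Wnt enhancer Rspo3 come from endothelium of the central vein region and maintain the beta-catenin programme of nearby hepatocytes, and Bmp2 is an endothelial inducer of the iron hormone hepcidin. Rspo3 read 4.55, 5.06, 4.62, 5.15 and 4.72 in the tumours and 7.06, 7.13, 7.15 and 7.11 in the livers. The livers spanned 0.10 and the gap between the groups was 1.90. Rspo3 fell by 2.29 (SE 0.13, limma adjusted p = 3.38e-06), the smallest p among the 36 genes, and its dimmer probe set passed at -0.31. The tumour level of Rspo3 was close to the TrpnX control, a bacterial sequence with no mouse target that read 3.69 to 4.36, and a fall to below that level would not be seen.

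Bmp2 read 5.65, 6.65, 6.24, 7.41 and 6.81 in the tumours and 9.38, 9.49, 9.56 and 9.22 in the livers. Each tumour was at least 1.81 below the lowest liver, and the difference was -2.86 (SE 0.30, limma adjusted p = 0.000157), to 13.8% of the liver level. Wnt2 read 5.02, 5.38, 5.13, 5.75 and 5.09 in the tumours and 7.28, 7.34, 6.72 and 7.10 in the livers, a difference of -1.84 (SE 0.18, limma adjusted p = 9.74e-05). Wnt9b differed little, at 5.78 to 6.06 in the tumours and 6.10 to 6.31 in the livers (-0.25, SE 0.09, limma adjusted p = 0.0492). Its call was lost in 13 of 18 alternative settings, among them leaving out any of the 5 tumours (-0.20 to -0.27) or livers 1, 2 or 3 (-0.23 to -0.25), and its difference ranged from -0.62 to -0.06 over the settings.

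**Figure D4:**
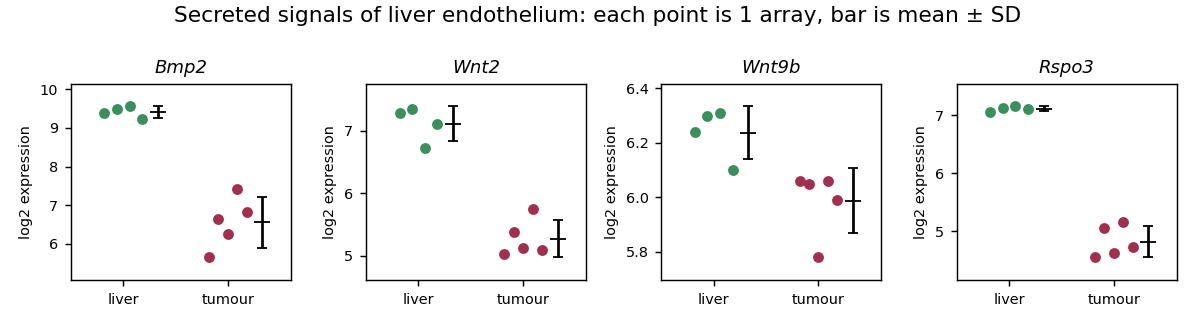
Log2 expression (y axis, each panel with its own range) of 4 secreted signals of liver endothelium in 4 livers and 5 tumours, 1 point per array, with the mean ± SD beside the points. The gap between the groups is 1.81 for Bmp2, 0.97 for Wnt2, 0.05 for Wnt9b and 1.90 for Rspo3.

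Genes known to respond to these signals are given beside them. Of 15 measured Wnt target genes, 11 fell and 0 rose with limma, beside 17.4% of all genes that fell and 16.1% that rose. At an unadjusted p of 0.05 with limma also 0 were higher, and the median log2 difference was -1.46. The hepatocyte regulator Tbx3 fell from 8.22 to 5.00, and Lect2, a protein secreted by central-vein hepatocytes, from 12.97 to 7.46. Of 10 BMP target genes, 4 fell and 1 rose, beside the same shares of all genes, with a median of -0.70. Id3, a direct BMP target, fell by 2.58 (SE 0.34) and the BMP inhibitor Smad6 by 1.56 (SE 0.28). Id1, another direct target, differed by -0.42 and did not pass. The hepcidin gene Hamp read 8.33, 14.43, 7.63, 8.90 and 6.82 in the tumours and 14.51 to 14.86 in the livers. Tumour 2 thus had Hamp close below the liver range while its Bmp2 value, 6.65, was below all livers. Whether the ligands and these genes are linked in these samples was not tested.

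The 6 genes grouped as capillary moved in both directions, and Vwf, Aqp1 and Cd36 among them are not particular to capillaries. Cd34, a sialomucin of capillary endothelium and blood progenitors, read 7.56, 7.74, 8.69, 7.19 and 7.35 in the tumours and 5.75, 6.26, 5.85 and 5.88 in the livers. Every tumour was above every liver, and Cd34 rose 3.41-fold (log2 1.77, SE 0.28, limma adjusted p = 0.00153). Emcn, the mucin endomucin of capillaries and veins, read 8.12, 8.76, 8.61, 7.67 and 7.73 in the tumours and 7.17 to 7.48 in the livers, a rise of 0.83 (SE 0.23, limma adjusted p = 0.0231). Its call was lost without liver 1 (0.77), without liver 4 (0.83) or without the 3 arrays with low Xist (0.65), and also with arrays centred on the median housekeeping change (0.47). Plvap, which forms the diaphragms of capillary pores, read 9.47, 10.12, 10.24, 10.03 and 9.80 in the tumours and 9.40 to 9.58 in the livers. Tumour 1 lay within the liver range for Plvap. The rise of 0.45 (SE 0.15, limma adjusted p = 0.0464) was lost in 13 of 18 alternative settings, among them centring on the median housekeeping change (0.08), leaving out any of the livers (0.42 to 0.48) or tumour 2, 3, 4 or 5 (0.37 to 0.48). Of the 3 capillary genes that rose, 1 passed without liver 1 and 1 without liver 4, Cd34 in each case. Tumours lay above livers without overlap for 2 of the 6 capillary genes, Cd34 and Emcn, beside 14.0% of all genes.

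The water channel gene Aqp1 went the other way, at 7.96, 9.52, 10.21, 10.19 and 9.07 in the tumours and 11.11, 10.94, 11.10 and 11.09 in the livers. It fell by 1.67 (SE 0.42, limma adjusted p = 0.0143), and tumour 1 was the lowest. Aqp1 is also carried by bile duct cells and red cells. Vwf, the clotting factor carrier stored in endothelium of larger vessels, read 4.65, 5.42, 6.96, 5.37 and 6.03 in the tumours and 6.39 to 6.84 in the livers. Tumour 3 exceeded every liver for Vwf and the other 4 tumours lay below them, and the difference of -0.95 (limma adjusted p = 0.0904) passed without tumour 3 (-1.27, limma adjusted p = 0.00852). The fatty acid transporter gene Cd36 read 9.64, 8.98, 10.72, 11.49 and 10.31 in the tumours and 10.93, 10.05, 11.48 and 8.06 in the livers (difference 0.10, 95% interval -1.52 to 1.72). Its 3 lowest arrays, tumours 1 and 2 and liver 4, were the 3 with low Xist (6.34, 6.39 and 6.66, against 12.68 to 13.55 elsewhere). Cd36 is also made by hepatocytes and macrophages.

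Of the genes shared by all endothelium, those that fell were 2 growth factor receptors and a phosphatase. Kdr, the main VEGF receptor, read 8.55, 9.07, 8.75, 8.92 and 8.54 in the tumours and 9.96, 9.97, 9.79 and 9.93 in the livers. Kdr fell by 1.15 (SE 0.12, limma adjusted p = 0.000157), with narrow spread in both groups. Tek, the angiopoietin receptor TIE2, read 5.62, 6.73, 6.22, 6.65 and 5.88 in the tumours and 7.97, 7.85, 7.70 and 7.29 in the livers, a difference of -1.48 (SE 0.25, limma adjusted p = 0.00203). Ptprb, a phosphatase that acts on TIE2 and on VE-cadherin, read 8.23, 9.67, 8.79, 9.52 and 8.65 in the tumours and 11.40, 10.98, 11.06 and 10.84 in the livers. Ptprb fell 4.28-fold (log2 -2.10, SE 0.29, limma adjusted p = 0.000736), and its other 2 probe sets also passed, at -1.86 and -0.77. For these 3 genes no tumour reached the liver range.

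The junction and adhesion genes of endothelium did not pass, and their spread was wide among tumours. Cdh5, which encodes VE-cadherin, the adhesion protein of endothelial junctions, read 7.07, 7.74, 8.61, 7.37 and 7.39 in the tumours and 7.76, 7.93, 7.92 and 7.35 in the livers (difference -0.10, 95% interval -0.75 to 0.54). Pecam1, the adhesion protein CD31, read 7.81, 8.73, 9.0, 8.0 and 7.59 in the tumours and 7.50 to 8.18 in the livers (0.40, 95% interval -0.27 to 1.07). Tumours 2 and 3 were above every liver for Pecam1. Tie1, an orphan partner of TIE2, differed by 0.17 (95% interval -0.34 to 0.68) and the junction gene Esam by -0.05 (95% interval -0.48 to 0.39). A test that was not passed does not show equal levels.

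Further shared genes did not pass either. The tight junction gene Cldn5 differed by -0.38, the VEGF receptor gene Flt1 by -0.38, the adrenomedullin coreceptor gene Ramp2 by -0.27, the guidance receptor gene Robo4 by -0.24 and the transcription factor gene Sox17, read by a probe set that can cross-hybridise, by -0.18. The 3 other Flt1 probe sets differed by 0.42, 0.04 and 0.22, and none of the 4 passed. The TGF-beta coreceptor gene Eng read 8.63, 9.13, 9.25, 9.23 and 9.25 in the tumours and 9.25 to 9.55 in the livers with the probe set used (-0.29, limma adjusted p = 0.137). A second Eng probe set had means of 7.54 (tumours) and 8.66 (livers) and passed at -1.13 (limma adjusted p over all probe sets = 0.00077). Sox18, a vascular transcription factor gene, read 8.13, 8.68, 8.68, 7.77 and 7.66 in the tumours and 7.35 to 7.69 in the livers. Its difference of 0.64 (limma adjusted p = 0.0584) passed without tumour 4 (0.74) or without tumour 5 (0.77).

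**Figure D5:**
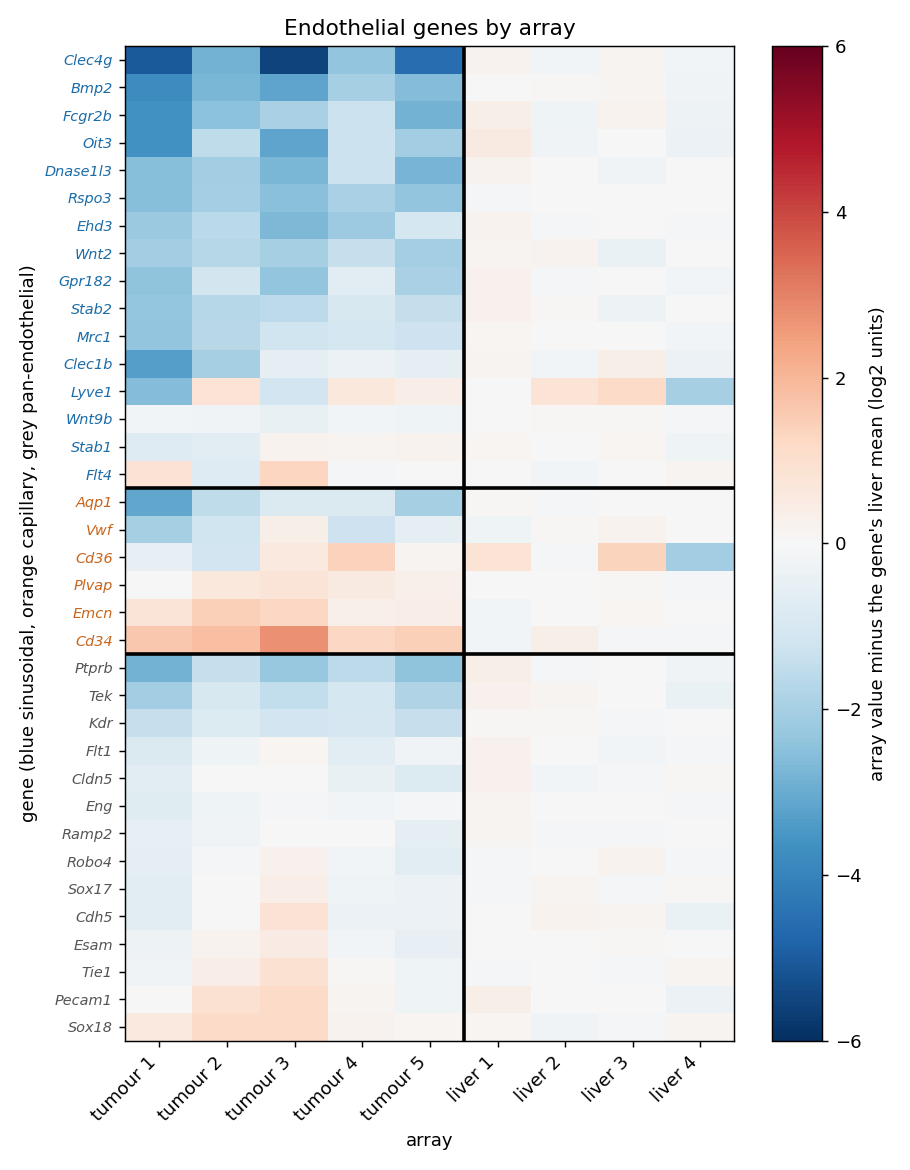
Each array's value minus the gene's liver mean (colour, log2 units) for the 36 genes (rows, in the 3 sets) and 9 arrays (columns). The 12 sinusoidal genes that passed are lower (blue) in all 5 tumours, Wnt9b only faintly. The set's median is lowest in tumour 1 and highest in tumour 4. Cd34 and Emcn are higher (red), Emcn only faintly in tumours 4 and 5, and most shared endothelial genes are pale.

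The tumours differed among themselves more than the livers did. The SD was larger among tumours for 35 of the 36 genes, beside 58.0% of all genes, with a median SD of 0.521 among tumours and 0.174 among livers. Tumour 4 had the highest tumour value for 11 of the 16 sinusoidal genes, and tumour 1 the lowest for 11. The shared genes had another order: tumour 3 was highest for 9 of 14 and tumour 2 for the other 5, whereas tumours 5 and 1 were lowest for 8 and 6. Tumour 3 had the highest tumour values of Cd34, Cdh5 and Pecam1 and the lowest of Clec4g and Ehd3. It was also the highest tumour for the sinusoidal genes Stab1 and Flt4, and was lowest for 3 of the 16 sinusoidal genes. Tumour 4, which kept the most Clec4g, Dnase1l3 and Bmp2 among tumours, had the lowest Cd34 and was not highest for any of the 14 shared genes.

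Genes of the VEGF, angiopoietin and BMP9 pathways that feed these receptors moved in both directions. Of 23 measured, 4 fell and 4 rose, near the shares of all genes (17.4% and 16.1%), with a median log2 difference of 0.21. The ligand gene Vegfa differed by -0.08 (limma adjusted p = 0.766), whereas Vegfb rose by 1.03 (SE 0.18). Esm1, a proteoglycan of activated endothelium, read 8.97, 9.82, 10.21, 8.92 and 8.60 in the tumours and 3.96, 4.99, 6.95 and 3.90 in the livers, of which liver 1 and liver 4 lay in the TrpnX range. The fitted difference was 4.35 (SE 0.63, limma adjusted p = 0.000939), whose size is uncertain with these livers at background. Apln, the ligand apelin of sprouting vessels, rose by 0.74 (SE 0.20). The VEGF coreceptor gene Nrp1 fell by 0.80 (SE 0.11). Calcrl, the receptor that Ramp2 escorts, fell by 1.85 (SE 0.24), while Ramp2 itself did not pass. Gdf2, which encodes BMP9, a ligand made by the liver that quiets endothelium, fell by 1.60 (SE 0.17).

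Some markers of the neighbouring cell types also differed between the groups. The counts below stand beside 17.4% of all genes that fell and 16.1% that rose. Of 13 Kupffer cell and macrophage markers, 7 fell and 0 rose (0 higher at an unadjusted p of 0.05), with a median of -1.77. Summed over the markers, the log2 level ranged from 11.77 to 13.99 among tumours and from 13.49 to 14.45 among livers, and 0 of the 13 had a mean at or below the highest TrpnX value in either group. Clec4f, which marks Kupffer cells, read 6.06, 7.66, 6.05, 8.99 and 7.45 in the tumours and 10.15 to 11.08 in the livers. General macrophage markers went in both directions. Csf1r fell by 1.53 (SE 0.47, limma adjusted p = 0.0333), and Adgre1 differed by -0.53 and did not pass. Cd68 differed by 0.69, C1qb by 0.35, C1qc by 0.23 and C1qa by 0.08, none of which passed. For Cd68, C1qa, C1qb and C1qc, tumours 3 to 5 were above every liver, and tumours 1 and 2 were below livers 1 to 3. Mrc1, Fcgr2b, Stab1, Lyve1, Clec1b and Cd36 can also come from macrophages, and the part of these cells in their values was not tested. Of 14 stellate cell and mesenchyme markers, 8 fell and 2 rose (summed level 12.61 to 14.31 in tumours and 13.82 to 14.20 in livers). The 2 that rose, a count near the share of all genes, were the fibrillar collagen genes Col1a1 and Col3a1. Of 11 lymphocyte markers 1 fell and of 7 red cell and platelet markers 1 fell, no more than the share of all genes. Of 12 hepatocyte markers 3 fell (summed level 17.88 to 18.12 in tumours and 18.12 to 18.29 in livers). Those that fell were the lipoprotein gene Apob (-0.61), the glycoprotein receptor gene Asgr1 (-0.68) and the gluconeogenic gene Pck1 (-4.52).

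Across the series, array medians over all probe sets lay between 6.22 and 6.27. Precision is limited by there being only 9 arrays. For the Actb controls, the 3′ probe set minus the 5′ probe set, a measure of RNA length, ranged from 0.53 to 0.72 among tumours and from 0.91 to 1.00 among livers on the log2 scale. An exact permutation test over all 126 splits gave a two-sided p of 0.00794, which is the lowest it can give, and 0.0159 adjusted over 2 controls. For Gapdh the same measure went the other way, at -0.24 to -0.18 among tumours and -0.32 to -0.21 among livers, with a p of 0.0635 by the exact permutation test. The Actb measure moved with the groups, and its part in the differences described was not tested. Of the 6091 genes that passed, 48.0% were higher, a share that fell to 22.3% after each array's 75th percentile was subtracted and to 13.2% when centred on the median change of 12 housekeeping genes, of which 6 rose and 1 fell. It was 77.6% when centred on the median level of the same genes, a value set by those of middle brightness, which was 0.19 lower in tumours. These scalings moved the median difference of all genes from -0.08 to -0.26, -0.45 and 0.11. Under them 13, 13 and 11 sinusoidal genes fell, and Cd34 rose by 1.59, 1.4 and 1.96.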

How the data were processed

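The deposited values are log2 expression per probe set, made by the authors with RMA per the submitters' processing notes, which name no version. Per the labels' protocols, Trizol RNA was amplified in 2 rounds with a RiboAmp kit. RMA compresses differences of dim probe sets and usually makes arrays alike in distribution, so a change of total RNA would not show. No scan batch is recorded in the labels.

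Of 45101 probe sets, 34945 named 1 gene in the platform annotation, 932 named several and 9160 named none, and 64 were controls. The brightest probe set of each gene (mean over all 9 arrays) gave 18193 genes, of which 6091 (33.5%) passed. Of the 36 members, 14 had more than 1 probe set, and these differed in call for 3. Probe sets were also fitted separately, with p-values adjusted over all of them. Groups were taken from the titles, and the difference was fitted without covariates by lmFit and eBayes of limma 3.58.1 (R 4.3.3, two-sided), with Benjamini-Hochberg adjustment over all genes and a threshold of 0.05. All adjusted p-values of genes come from this test. Other values and plots came from Python 3.11.15, numpy 2.4.6, pandas 2.3.3 and matplotlib 3.10.9. Promoter letters came from RefSeq (GRCm38.p6).

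The members and lists were chosen with earlier results of these data known. Values by array were given for the leading genes of each set, up to 5 with the smallest adjusted p. They were also given for the 4 secreted signals and for genes whose probe sets differ in call. From other lists they were given for up to 3 genes with the smallest adjusted p in each direction. Stab2 was outside these rules and was given by array beside its paralog Stab1. Stab1, Lyve1, Flt4, Clec1b, Cd36, Vwf, Cdh5, Pecam1, Sox18, Hamp, Vegfa, Id1, Csf1r, Adgre1, Cd68, C1qa, C1qb and C1qc were added after their values were seen. Limma was tested on simulated data of 18193 genes with 5 and 4 arrays. It recovered 35.8%, 76.1% and 95.5% of genes changed by 0.5, 1 and 2 log2 units, with 10 other genes called. Far fewer genes were changed there than passed here, and both groups were given the same spread. These rates therefore need not hold for these data. The 2 most alike arrays were 0.311 apart (root mean square, log2), and none was taken for a duplicate. The 18 alternatives, of which centring on the median housekeeping change was chosen after seeing the data, changed the probe set rule, the filter on dim genes, the scaling, the variance model, the replicate block or the arrays used.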

Additional observations from a re-analysis of the deposited data

Results flagged for a closer look

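In 72 checks of the 36 genes for an array far from the rest of its group, 4 stood out, and chance gives about 1 in 20. Tumour 1 was lowest for Eng, at 8.63 against 9.13 to 9.25 in the other tumours. Tumour 3 was lowest for Wnt9b, at 5.78 against 5.99 to 6.06. Liver 2 was lowest for Aqp1, at 10.94 against 11.09 to 11.11, and liver 3 was highest for Esam, at 8.86 against 8.77 to 8.78. The distances in the livers are small beside the differences between tumours for the same genes.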

How the results depend on the processing

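Of the 19 genes that passed, 14 kept their direction and call in all 18 alternatives, and 0 reversed. The exceptions were Wnt9b (lost in 13), Plvap (lost in 13), Emcn (lost in 4), and Aqp1 and Gpr182 (lost with the replicate block). Over these settings Clec4g ranged from -4.51 to -2.17, Rspo3 from -2.66 to -1.30 and Cd34 from 1.4 to 1.96. The number of sinusoidal genes that fell was 10 to 13 and 0 rose in each alternative. Genes past the threshold numbered 6091, but 3561 with arrays centred on the median level of housekeeping genes and 10346 when centred on the 75th percentile, where 7 shared endothelial genes and 2 capillary genes fell instead of 3 and 1. With housekeeping level centring 1 shared gene, Sox18, rose. That level was 0.19 lower in tumours although 6 of these 12 genes rose and 1 fell. Arrays were therefore also centred on the median housekeeping change, which was 0.37 higher in tumours, a setting chosen after seeing the data. Then 12371 genes passed, 9 shared and 2 capillary genes fell, 1 capillary gene rose, and Cd36 was -0.27, Flt4 -0.11 and Tie1 -0.20. Leaving out 1 array at a time gave 4632 to 6361 genes in all, 1 to 3 capillary genes that rose, 1 to 2 that fell, and 0 to 1 shared genes that rose. The causes were not tested.

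Same-numbered arrays of the groups share only a number: their deviations from the group means correlated at -0.129, -0.0669, 0.18 and -0.121 in pairs 1 to 4, and 1 of 4 tumours correlated best with the liver of its own number. With the replicate number as a block 3552 genes passed, and 10 sinusoidal genes and 0 capillary genes fell. Aqp1 then had -1.59 (limma adjusted p = 0.0555) and Gpr182 -1.62 (0.0525). Only tumours have a number 5, so this setting takes tumour 5 out of the comparison. Without tumour 5 and with no block these differences were the same, -1.59 and -1.62, and passed (limma adjusted p = 0.035 and 0.0198).

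Signs changed among genes that had not passed. With housekeeping level centring Cdh5 was 0.09, Esam 0.15, Sox17 0.02 and Stab1 0.01, and with 75th percentile centring Cd36 was -0.08 and Tie1 -0.01. With the mean of all probe sets Cdh5 was 0.03 and Flt1 0.08, and without probe sets open to cross-hybridisation Sox17 was 0.13. With the replicate block Esam was 0.07, and without the 3 arrays with low Xist Stab1 was 0.10. Leaving out 1 array moved Cd36 between -0.59 and 0.55, Cdh5 between -0.35 and 0.04, Esam between -0.19 and 0.07, Lyve1 between -1.03 and 0.18 and Tie1 between -0.01 and 0.28. Tumour levels near the TrpnX control limit how large a fall can be measured.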

Other observations

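Of 36 other measured endothelial genes, 12 fell and 4 rose, beside 17.4% of all genes that fell and 16.1% that rose. Their median log2 difference was -0.21. F8, the clotting factor VIII gene, which is made by liver endothelium, read 6.03, 6.98, 6.01, 7.46 and 5.60 in the tumours and 8.68 to 9.08 in the livers, a fall of 2.40 (SE 0.35, limma adjusted p = 0.00108). Tumours 2 and 4 had the highest F8 values among tumours, as they had for Clec4g. Cd209b, a lectin gene, fell by 0.50 (SE 0.09) and Il1a, a cytokine gene, by 0.90 (SE 0.13). Col4a1, a collagen of basement membranes, read 10.81, 10.88, 12.22, 10.50 and 11.09 in the tumours and 7.72 to 8.91 in the livers, a rise of 2.75 (SE 0.35, limma adjusted p = 0.000527), and tumour 3 was the highest. Icam1, an adhesion receptor for leukocytes, rose by 1.14 (SE 0.17) and the transcription cofactor gene Lmo2 by 1.46 (SE 0.27). Other cell types can also express Col4a1 and Icam1. Gata4 and Maf, transcription factor genes known from sinusoidal endothelium and chosen here after their values were seen, differed by 0.04 (limma adjusted p = 0.88) and -1.88 (limma adjusted p = 0.00307).

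The counts that follow stand beside 17.4% of all genes that fell and 16.1% that rose. Of 7 arterial genes 3 fell and 0 rose (0 at an unadjusted p of 0.05 with limma). Of the 3, Hey2 and Bmx had means at or below the highest TrpnX value in both groups, so their differences lie within background, and Gja4, a connexin gene, fell by 0.47 (SE 0.13). Of 6 measured venous and lymphatic genes 2 fell and 1 rose. Ephb4, a receptor of venous endothelium, rose by 0.68 (SE 0.10), the leukocyte adhesion gene Selp fell by 1.01 (SE 0.24) and the lymphatic gene Pdpn by 0.22 (SE 0.08). Of 6 bile duct markers 1 fell and 1 rose, near the shares of all genes. Of 12 measured housekeeping genes 6 rose and 1 fell, with a median of 0.34.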
